A study of Mus musculus with 4 samples.

Results

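The RNA of cochleae was examined for 33 genes of the red cell lineage and of heme synthesis, chosen as a list by gene name: 7 early regulators and receptors, 9 proteins of the red cell membrane and its skeleton, 5 other proteins of late red cells, 3 globins with their chaperone, and 8 genes of heme synthesis. Of 29979 gene names on the array, 21942 had a probe well above background on at least 1 array, and all 33 of the listed genes were among them. The 33 genes had 41 probes, and the brightest probe was used for each gene. For 29 genes this probe was well above background on all 4 arrays. *Gata1*, *Gfi1b* and *Klf1* were above it on 3 arrays and *Rhag* on 1.

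The series holds 4 groups with 1 array each, all on 1 slide, and the mice were 5 weeks of age and on the B6J background. WT DT(-) mice carried no transgene and were not given diphtheria toxin (DT), and WT DT(+) mice received 50 μg/kg of DT 7 days before the cochleae were taken. OHC-TRECK DT(-) and OHC-TRECK DT(+) mice carried the *Prestin*-*hDTR* transgene, in which the promoter of *Slc26a5* (prestin, the motor protein of outer hair cells) drives the human DT receptor, without DT and with the same dose and interval. Both OHC-TRECK groups came from 1 transgenic line, so an effect of its insertion site cannot be told apart from that of the transgene. Each array was hybridised with RNA of 8 cochleae, from 4 females and 4 males. There were thus no replicates, no difference has a replicate check and no p-value is given. In whole cochlear RNA, fewer cells of a type and less RNA per cell cannot be told apart.

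Red cells arise from committed progenitors in which GATA1, with partners such as TAL1 and KLF1, turns on the genes of the mature cell, while erythropoietin and its receptor keep the progenitors alive. The maturing cells fill with hemoglobin, made of alpha and beta globin chains that each hold a heme, and they lay down a membrane skeleton of spectrin and ankyrin tied to the anion exchanger band 3. The cochlea lies within the temporal bone, whose marrow is a site of blood formation, and its own vessels carry mature red cells, which have lost the nucleus but keep some globin RNA.

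The sequences 5′ of the transcription start of 6 of the genes are shown because GATA1 binds DNA at short GATA words, and the genes differ in whether such letters lie there. They are the 100 bases before the start in RefSeq (GRCm38.p6), read 5′ to 3′ on the strand of the gene, and capitals mark each match to the word AGATAA, the word AGATAG, the word TGATAA or the word TGATAG on either strand, so that a match on the opposite strand reads as its reverse complement. *Kel* lies at chr6:41704326-41704425 on the minus strand, *Rhd* at chr4:134864436-134864535 on the plus strand, *Epor* at chr9:21963577-21963676 on the minus strand, *Klf1* at chr8:84901882-84901981 on the plus strand, *Alas2* at chrX:150547317-150547416 on the plus strand and *Gata1* at chrX:7967911-7968010 on the minus strand.
Kel: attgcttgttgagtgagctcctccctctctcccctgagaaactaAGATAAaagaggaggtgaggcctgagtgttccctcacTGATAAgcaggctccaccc
Rhd: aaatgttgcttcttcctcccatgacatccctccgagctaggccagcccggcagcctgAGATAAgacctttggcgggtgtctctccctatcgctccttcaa
Epor: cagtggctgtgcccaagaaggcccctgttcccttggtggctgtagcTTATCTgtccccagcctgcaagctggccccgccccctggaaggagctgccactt
Klf1: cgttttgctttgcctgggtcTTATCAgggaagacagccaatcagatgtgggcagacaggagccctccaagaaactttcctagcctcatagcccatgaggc
Alas2: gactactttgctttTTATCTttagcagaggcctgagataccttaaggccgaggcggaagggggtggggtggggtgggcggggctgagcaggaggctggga
Gata1: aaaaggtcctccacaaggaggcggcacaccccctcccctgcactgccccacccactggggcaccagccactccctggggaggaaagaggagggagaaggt
*Kel* held 2 of these words, which began 56 and 19 bases before the start, and *Gata1* held none in this window. RefSeq promoters of 300 bases, 250 before to 50 after the start, were at hand for 24 of the 33 genes (28 promoters), and 16 genes held at least 1 word. By promoter, the share with a word was 57.1% of these 28 and 29.8% of all 32851. Those not matched were *Hbb-b1*, *Hbb-b2*, *Slc4a1*, *Ank1*, *Nfe2*, *Ahsp*, *Car1*, *Slc25a37* and *Fech*. A match of letters is a description of the sequence and not a binding site.

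The values below are normalized log2 signals, where 0 is the 75th percentile of the probes on an array. They serve to compare arrays for the same probe and not one gene with another. Where a probe was spotted more than once, its spots had a median SD of at most 0.071, or 0.10 for a ratio of 2 arrays, which says nothing of the spread between mice. A gene was called higher or lower at 2-fold, and a fold against an array where the signal did not clear the background is a lower bound, given as "at least".

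The early regulators were highest in the DT-treated wild-type cochlea. *Gata1*, the master regulator of the lineage (mm9 chromosome X, 7536392 to 7536451), had a log2 signal of -4.89 in WT DT(-), -2.23 in WT DT(+), -6.10 in OHC-TRECK DT(-), where it was not above background, and -4.59 in OHC-TRECK DT(+). It was thus 6.30-fold higher in WT DT(+) than in WT DT(-), and at least 2.84-fold higher in OHC-TRECK DT(+) than in OHC-TRECK DT(-). Both DT-treated arrays lay above both untreated arrays, and WT DT(+) stood clear of the other three. *Tal1*, its partner in progenitors (chromosome 4, 114744219 to 114744278), had -3.26, -2.17, -3.54 and -3.00 in the same order of arrays, a difference of 2.13-fold after DT in WT and 1.46-fold in OHC-TRECK mice. *Epor*, the erythropoietin receptor (chromosome 9, 21763422 to 21763481), followed the same order of arrays. Its values were -2.92, -1.62, -3.22 and -2.63, so that it was 2.46-fold higher after DT in WT and 1.51-fold in OHC-TRECK mice.

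Among the other regulators, both OHC-TRECK arrays lay below both WT arrays for *Gfi1b* and *Nfe2*. For *Klf1* only WT DT(+) stood apart. *Gfi1b*, a repressor needed for red cell and platelet precursors (chromosome 2, 28464982 to 28465041), had -4.11 in WT DT(-), -2.79 in WT DT(+), -5.07 in OHC-TRECK DT(-) and -5.28, not above background, in OHC-TRECK DT(+). DT went with a 2.51-fold higher signal in WT mice, while in OHC-TRECK mice the DT-treated array was at least 1.16-fold lower than the untreated one. *Klf1*, the activator of adult beta globin (chromosome 8, 87428881 to 87428940), had -5.22, -3.94, -5.47 and -5.23, the last not above background. It was 2.42-fold higher in WT DT(+) than in WT DT(-), and no fold is given between the OHC-TRECK arrays. *Nfe2*, a regulator shared by red cells and megakaryocytes (chromosome 15, 103078838 to 103078897), had -2.85, -2.15, -3.86 and -3.67. Here both OHC-TRECK arrays lay below both WT arrays, and the DT-treated WT array was 1.62-fold above the untreated one. *Tfrc*, the transferrin receptor that most dividing cells also carry, varied little by its brightest probe, at 1.01, 0.88, 0.91 and 0.77. A further probe, A_65_P06446, had 0.27, 0.58, 0.13 and -0.30. By that probe *Tfrc* was 1.24-fold higher after DT in WT mice and 1.85-fold lower in OHC-TRECK DT(+) than in WT DT(+). The dimmest probe, A_51_P167876, had -4.41, -4.34, -4.45 and -4.81.

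With a normexp background correction in place of that of the scanner software, *Tal1* (log2 ratio 0.91) and *Klf1* (0.77) were no longer 2-fold higher in WT DT(+), nor was *Gata1* (0.81) in OHC-TRECK DT(+).

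**Figure D1:**
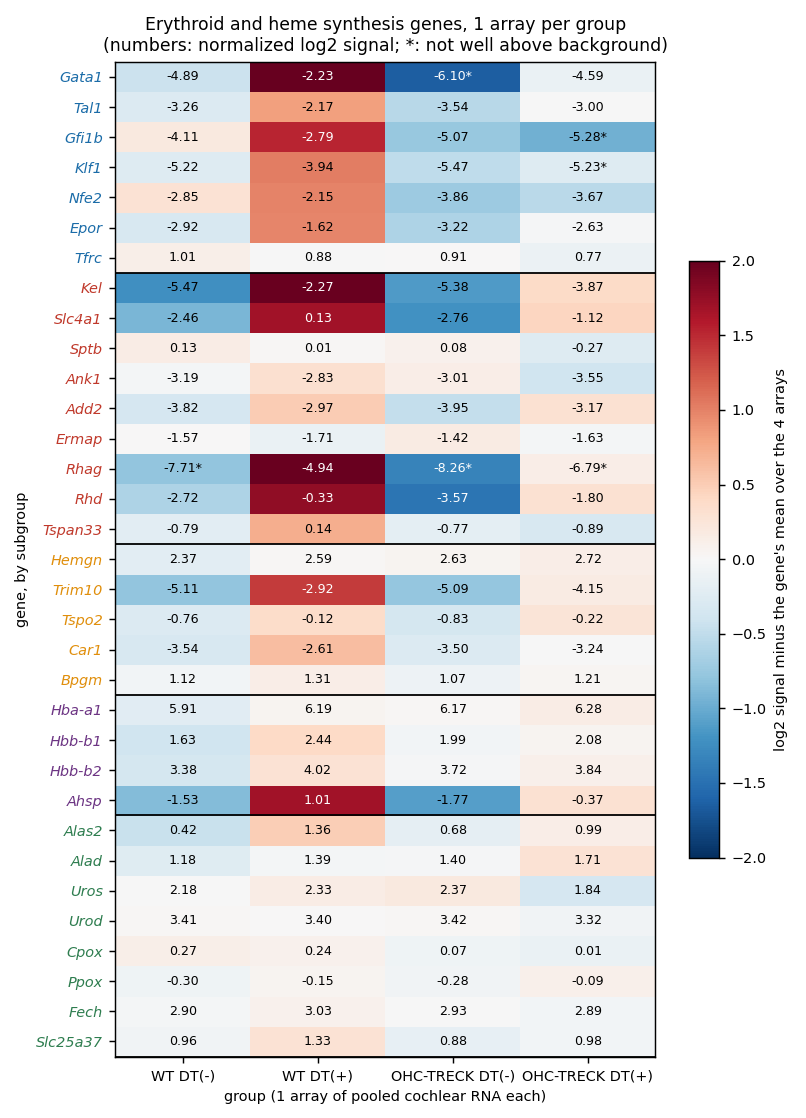
Normalized log2 signal (numbers) of the 33 genes on the 4 arrays, coloured by the difference from the gene's own mean over the arrays, with an asterisk where the probe was not well above background and lines between the 5 subgroups (from the top: early regulators and receptors, membrane and skeleton, other late proteins, globins and chaperone, heme synthesis). WT DT(+) is the highest array for 23 of the 33 genes, among them *Rhag*, which is above background on this array alone.

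Genes of the red cell surface gave the largest ratio of the list and a split within the group. *Kel*, the Kell blood group protein (chromosome 6, 41636474 to 41636533), had -5.47 in WT DT(-), -2.27 in WT DT(+), -5.38 in OHC-TRECK DT(-) and -3.87 in OHC-TRECK DT(+). It was 9.15-fold higher after DT in WT and 2.86-fold higher in OHC-TRECK mice, and the untreated arrays differed by 1.06-fold. *Slc4a1*, the anion exchanger band 3 (chromosome 11, 102210256 to 102210315), had -2.46, 0.13, -2.76 and -1.12. These values gave 6.03-fold after DT in WT and 3.12-fold in OHC-TRECK mice. *Rhd*, the Rh blood group protein (chromosome 4, 134452018 to 134452077), had -2.72, -0.33, -3.57 and -1.80, or 5.22-fold in WT and 3.40-fold in OHC-TRECK mice. For all 3 genes both DT-treated arrays were above both untreated arrays and WT DT(+) was the highest. *Rhag*, the Rh-associated glycoprotein, was above background on the WT DT(+) array alone, at -4.94, which was at least 1.99-fold above WT DT(-) and at least 1.42-fold above OHC-TRECK DT(+).

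Components of the skeleton under the membrane differed less. *Add2*, beta-adducin, had -3.82 in WT DT(-), -2.97 in WT DT(+), -3.95 in OHC-TRECK DT(-) and -3.17 in OHC-TRECK DT(+), and the ratio after DT was close in both genotypes, 1.80-fold and 1.72-fold. *Sptb*, beta-spectrin, had 0.13, 0.01, 0.08 and -0.27, and *Ank1*, the ankyrin that joins spectrin to band 3, had -3.19, -2.83, -3.01 and -3.55. Spectrin and ankyrin genes are also active in muscle and nerve, and the OHC-TRECK DT(+) array was the lowest for both. *Tspan33*, a tetraspanin of late erythroblasts, had -0.79, 0.14, -0.77 and -0.89. It was 1.91-fold higher after DT in WT mice, and the other three arrays lay together.

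*Ermap*, an erythroblast membrane protein, depended on the probe. Its brightest probe, A_55_P2153381 (chromosome 4, 118849093 to 118849152), had -1.57 in WT DT(-), -1.71 in WT DT(+), -1.42 in OHC-TRECK DT(-) and -1.63 in OHC-TRECK DT(+). A dimmer probe, A_51_P391716 (118848540 to 118848599), was above background on all 4 arrays with -5.58, -3.26, -5.88 and -4.95. By that probe *Ermap* was 4.99-fold higher after DT in WT and 1.91-fold in OHC-TRECK mice. The order of arrays was then that of *Slc4a1* and *Rhd*, whereas the brightest probe gave a flat profile. A further probe, A_55_P2153382 (118859754 to 118859813), was above background on WT DT(+) and OHC-TRECK DT(-) alone and was at least 7.96-fold higher in OHC-TRECK DT(-) than in WT DT(-). Of the 6 genes with more than 1 probe, *Ermap* was the one whose probes differed by 1 or more on the log2 scale in any comparison.

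**Figure D2:**
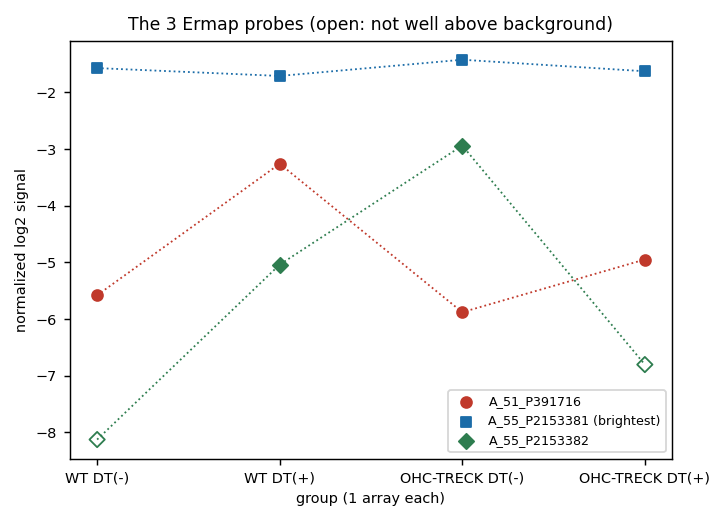
Normalized log2 signal of the 3 *Ermap* probes on the 4 arrays (open symbols: not well above background; dotted lines join the values of a probe). The brightest probe, at -1.71 to -1.42, changes little, and A_51_P391716 is highest at -3.26 in WT DT(+).

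Among the other late red cell proteins, *Trim10*, which is needed for terminal maturation of erythroblasts (chromosome 17, 37014159 to 37014218), had -5.11 in WT DT(-), -2.92 in WT DT(+), -5.09 in OHC-TRECK DT(-) and -4.15 in OHC-TRECK DT(+). The untreated arrays were alike, and the signal was 4.56-fold higher after DT in WT and 1.92-fold in OHC-TRECK mice. *Tspo2*, an erythroid cholesterol-binding protein, had -0.76, -0.12, -0.83 and -0.22, with similar ratios of 1.56-fold and 1.52-fold. *Car1*, a carbonic anhydrase of red cells, had -3.54, -2.61, -3.50 and -3.24, or 1.91-fold in WT and 1.20-fold in OHC-TRECK mice. By their brightest probes these genes shared the order in which both DT-treated arrays lay above both untreated ones. A dimmer probe of *Car1*, A_55_P2099952, had -5.25, -4.00, -5.20 and -5.38, the last not above background. By that probe *Car1* was 2.38-fold higher after DT in WT mice, and OHC-TRECK DT(+) was the lowest array. *Bpgm*, which makes the 2,3-bisphosphoglycerate that lowers the oxygen affinity of hemoglobin, had 1.12, 1.31, 1.07 and 1.21. *Hemgn*, hemogen, had 2.37, 2.59, 2.63 and 2.72, with WT DT(-) the lowest and OHC-TRECK DT(+) the highest array.

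The globins differed less than the chaperone of alpha globin. *Ahsp*, which binds free alpha chains, had -1.53 in WT DT(-), 1.01 in WT DT(+), -1.77 in OHC-TRECK DT(-) and -0.37 in OHC-TRECK DT(+), which is 5.81-fold higher after DT in WT and 2.65-fold higher in OHC-TRECK mice. *Hba-a1*, an alpha globin, had 5.91, 6.19, 6.17 and 6.28, a ratio of 1.21-fold in WT and 1.09-fold in OHC-TRECK mice. *Hbb-b1*, an adult beta globin, had 1.63, 2.44, 1.99 and 2.08, and *Hbb-b2*, its neighbour, had 3.38, 4.02, 3.72 and 3.84. The beta globin probes were 1.75-fold and 1.56-fold higher after DT in WT and 1.07-fold and 1.08-fold in OHC-TRECK mice. *Hba-a1* and *Hba-a2*, and likewise the beta globin genes, are near-identical copies, so a probe may read several of them and the values of single globin genes are uncertain. The probes of *Ahsp* and *Hbb-b2* have no position in the array files.

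In heme synthesis the erythroid entry step stood apart in size, although it did not reach 2-fold. *Alas2*, the erythroid form of the first enzyme of the pathway (chromosome X, 147004993 to 147005052), had 0.42 in WT DT(-), 1.36 in WT DT(+), 0.68 in OHC-TRECK DT(-) and 0.99 in OHC-TRECK DT(+). Its ratio after DT was 1.92-fold in WT and 1.24-fold in OHC-TRECK mice, with both DT-treated arrays above both untreated ones. *Slc25a37*, mitoferrin, which brings iron into mitochondria, had 0.96, 1.33, 0.88 and 0.98, or 1.29-fold in WT mice. The enzymes of the following steps, which all cells use, had small ratios. After DT in WT mice these 6 enzymes lay between -0.03 and 0.20 on the log2 scale, with a median of 0.14.

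*Alad*, the second enzyme, had 1.18, 1.39, 1.40 and 1.71 in the same order of arrays, and *Uros*, uroporphyrinogen III synthase, had 2.18, 2.33, 2.37 and 1.84. *Uros* was 1.44-fold lower in OHC-TRECK DT(+) than in OHC-TRECK DT(-), the largest difference among these enzymes in the comparisons of DT. *Urod*, which acts next, had 3.41, 3.40, 3.42 and 3.32, and *Cpox*, coproporphyrinogen oxidase, had 0.27, 0.24, 0.07 and 0.01. *Ppox*, protoporphyrinogen oxidase, had -0.30, -0.15, -0.28 and -0.09, and *Fech*, ferrochelatase, which inserts the iron, had 2.90, 3.03, 2.93 and 2.89. None of the 8 heme synthesis genes (0 of 8) was 2-fold higher or lower in any of the 4 comparisons.

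After DT in WT mice, 10 of the 33 genes were 2-fold or more higher (*Gata1*, *Tal1*, *Gfi1b*, *Klf1*, *Epor*, *Kel*, *Slc4a1*, *Rhd*, *Trim10* and *Ahsp*), where 1.55% of 20491 genes on the array were. None (0 of 33) was 2-fold lower, where 1.12% of all genes were. The list was chosen with earlier results of these data known, so these counts are a description and not a test. The median log2 ratio of the 33 genes was 0.70, against -0.04 for all genes, and 28 of them lay above 0. The 28 include *Rhag*, which passed the background filter only through the WT DT(+) array. The subgroup medians were 1.28 for the early regulators and receptors (5 of 7 called), 0.94 for membrane and skeleton (3 of 9), 0.64 for the other late proteins (1 of 5), 0.72 for the globins and chaperone (1 of 4) and 0.15 for heme synthesis (0 of 8). With the brightest probes and the background of the scanner software, the early genes thus had the highest share of calls and the heme synthesis genes the lowest. With normexp, *Tal1* (0.91) and *Klf1* (0.77) of the early genes were not called. By a dimmer probe *Ermap*, of membrane and skeleton, was 4.99-fold higher. The shares of both subgroups thus depend on the background correction and on the probe. Of the 8 called genes with a promoter at hand, 7 held a GATA word, the exception being *Gata1*, and of the 16 genes not called 9 did. Of all 27025 genes with a promoter, 8930 held at least 1 word. A link between these words and the ratio after DT was not tested.

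After DT in OHC-TRECK mice, 5 of 32 genes were 2-fold or more higher, where 2.76% of all genes were. These were *Gata1*, *Kel*, *Slc4a1*, *Rhd* and *Ahsp*, all of which were also higher after DT in WT mice. None (0 of 32) was 2-fold lower, against 1.39% of all genes, and the median of the list was 0.13, against 0 for all genes. The early regulators and receptors had a median of 0.19 with 1 of 7 called, and membrane and skeleton had 0.33 with 3 of 8 called. The other late proteins had a median of 0.26 with 0 of 5 called, the globins and chaperone 0.12 with 1 of 4, and heme synthesis 0.03 with 0 of 8.

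The DT comparisons of both genotypes share no array. Over the 29 genes above background on all 4 arrays, the ratio after DT was larger in WT than in OHC-TRECK mice for 27, and the exceptions were *Alad* and *Ppox*. The median difference, OHC-TRECK minus WT, was -0.51 on the log2 scale, against 0.03 over 18248 genes above background on all arrays. Across these genes, which share the arrays and are not independent, the ratios had a Pearson r of 0.90 and a Spearman rho of 0.79 for the list (n = 29), and 0.19 and 0.18 for all 18248 genes. With all 32 genes compared in both genotypes, bounds included, r was 0.87 and rho 0.70. The genes left out among the 29 because a signal was not above background include *Gfi1b* and *Klf1*, which were called in WT mice and not in OHC-TRECK mice. *Kel*, *Slc4a1*, *Rhd* and *Ahsp*, called in both genotypes, had the smaller ratio in OHC-TRECK mice.

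**Figure D3:**
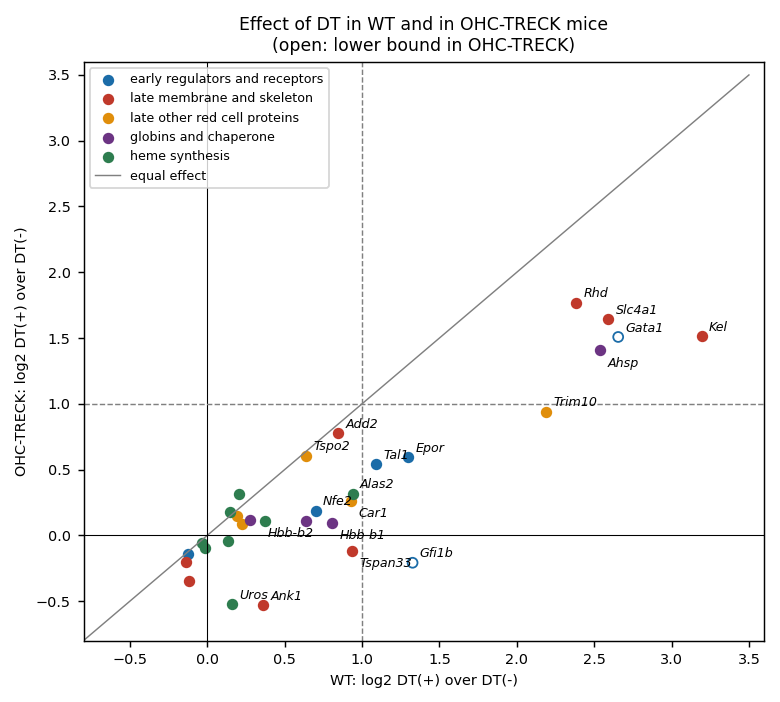
Log2 ratio of DT(+) over DT(-) in WT mice (horizontal) against that in OHC-TRECK mice (vertical), 1 point per gene, coloured by subgroup, with open points for lower bounds in OHC-TRECK mice and dashed lines at 2-fold. *Rhag* and *Klf1*, with no fold in OHC-TRECK mice, are left out. Most points lie below the line of equal effect.

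**Figure D4:**
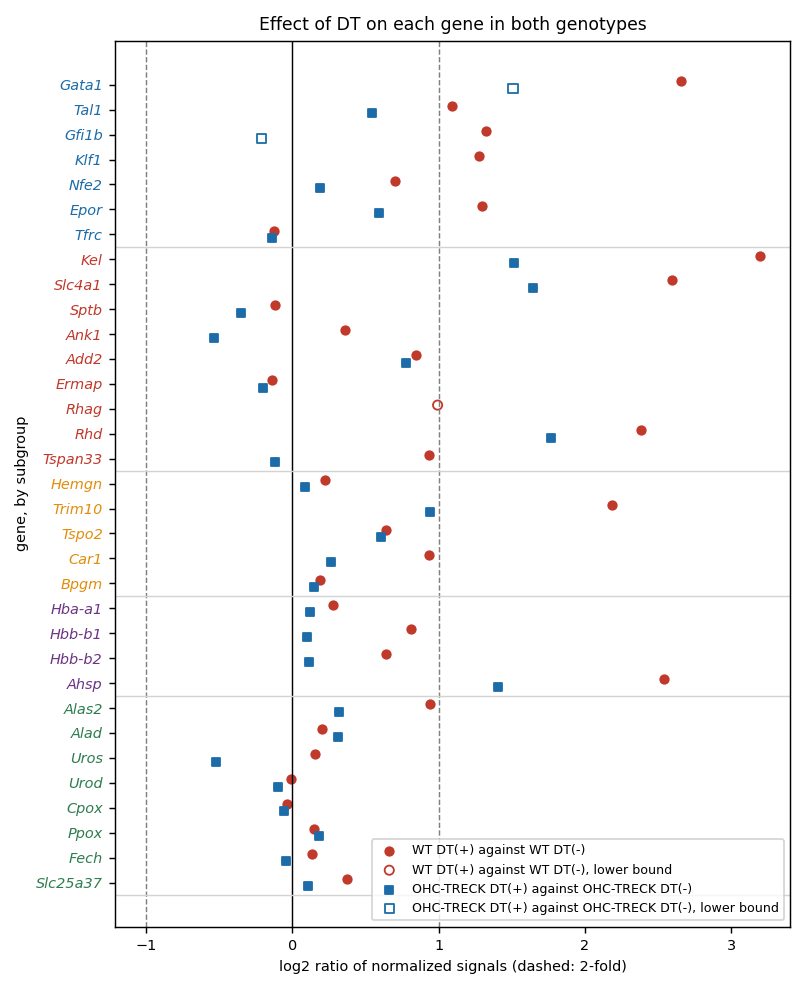
Log2 ratios after DT of each gene in WT mice (circles) and in OHC-TRECK mice (squares), by subgroup, with open symbols for lower bounds and dashed lines at 2-fold. *Kel*, at 9.15-fold, is the farthest right, and no heme synthesis gene, at the bottom, reaches 2-fold in either genotype.

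Ordered by signal on the 4 arrays, WT DT(+) was the highest array for 23 of the 33 genes, where this held for 15.2% of all genes. The 23 include *Rhag*, which passed the background filter only through the WT DT(+) array. Both DT-treated arrays lay above both untreated arrays for 19 of the 33 genes, where 14.1% of all genes had this order, counting signals that were not above background as measured, as for *Rhag*. OHC-TRECK DT(-) was the lowest array for 13 genes, WT DT(-) for 10 and OHC-TRECK DT(+) for 9.

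Without DT the genotypes differed little in these genes. In OHC-TRECK DT(-) against WT DT(-), 0 of 32 genes were 2-fold higher, where 1.03% of all genes were, and 2 were lower, where 2.44% of all genes were. The 2 were *Nfe2*, 2.02-fold lower, and *Gata1*, at least 2.32-fold lower, and neither was called with the normexp correction, nor was *Nfe2* with scaling to the median (-0.95) or quantile normalization (-0.97). The median was -0.02, against -0.01 for all genes. All 7 early regulators and receptors had ratios below 0, with a median of -0.30, while the globins and chaperone had a median of 0.30 and *Ahsp* was their one gene below 0.

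With DT the genotypes stood apart. In OHC-TRECK DT(+) against WT DT(+), 11 of 33 genes were 2-fold or more lower, where 1.93% of all genes were, and 0 were higher, where 1.55% were. This comparison shares its arrays with both comparisons of DT. *Gfi1b* was at least 5.61-fold lower, *Gata1* 5.13-fold, *Kel* 3.01-fold, *Nfe2* 2.88-fold and *Rhd* 2.77-fold. *Ahsp* was 2.59-fold lower, *Klf1* at least 2.44-fold, *Slc4a1* 2.38-fold, *Trim10* 2.34-fold, *Tspan33* 2.05-fold and *Epor* 2.01-fold. *Epor* was below 2-fold with scaling to the median (-0.97) and with quantile normalization (-0.98), and with normexp *Klf1* (-0.72), *Epor* (-0.87) and *Trim10* (-0.85) were. The subgroup medians were -1.29 for the early regulators and receptors (5 of 7 called), -0.72 for membrane and skeleton, -0.10 for the other late proteins, -0.27 for the globins and chaperone and -0.18 for heme synthesis.

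Other genes of the same pathways were taken from a list of 37, of which 35 had a probe above background. In WT DT(+) against WT DT(-), 5 of 34 were 2-fold or more higher and 0 were lower. Among them, *Epb4.2*, protein 4.2 of the red cell skeleton, was at least 3.28-fold higher, *Cldn13*, a claudin of erythroblasts, at least 5.25-fold, and *Hbq1b*, a theta globin, 5.71-fold. In the list of other red cell membrane and skeleton genes, 4 of 11 were called. *Epb4.2* and *Cldn13* were above background on the WT DT(+) array alone and so entered these counts only through the array on which they were high.

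The other erythroid regulators, several of which act in more cell types, had 0 of 8 called and a median of 0.08 after DT in WT mice, where *Myb*, a regulator of progenitors, was 1.95-fold higher and *Zfpm1*, the GATA1 cofactor FOG1 and the brightest of its list, had a log2 ratio of 0.09. The other heme and iron genes had 0 of 11 called and a median of 0.04. Among these, *Trf*, transferrin, the brightest of the list, had -0.15. *Hba-a2*, the copy of alpha globin, had -0.15, and the embryonic *Hbb-y* and *Hbb-bh1* were not above background in WT DT(+).

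After DT in OHC-TRECK mice the theta globin *Hbq1a* was at least 2.01-fold lower, the 1 of 33 pathway genes called in that direction. In OHC-TRECK DT(-) against WT DT(-), *Sox6*, a factor in globin switching, was 2.87-fold and *Hbq1a* at least 3.11-fold higher, and *Myb* was 2.31-fold lower. *Hbq1a* was above background on the OHC-TRECK DT(-) array alone and so entered these counts only through the array on which it was high. In OHC-TRECK DT(+) against WT DT(+), 5 of 33 were lower (*Epb4.2*, *Cldn13*, *Hbq1b* and *Myb* among them) and 1 was higher (*Sox6*, 3.22-fold).

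Markers of neutrophils, B cells and platelets had medians above 0 after DT in WT mice, as the erythroid genes did, while those of macrophages did not. In WT DT(+) against WT DT(-), 3 of 14 neutrophil genes were 2-fold higher (*Ltf*, *Lcn2* and *Mmp8*), as were 4 of 10 genes of B cells (*Cd79b*, *Vpreb3* and *Dntt* among them) and 4 of 8 of platelets (*Ppbp*, *Gp1ba*, *Gp9* and *Treml1*), with medians of 0.63, 0.81 and 0.70. Genes of proliferating cells were higher in 5 of 7 cases (1 of them a lower bound), where 1.55% of all genes were. Their median was 1.33, and *Mki67*, the Ki-67 antigen, was 4.25-fold higher. The macrophage genes, some of which are shared with the cochlea's own macrophages, had 0 of 8 called and a median of -0.001. The part of these cells in the erythroid values was not tested.

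In OHC-TRECK DT(-) against WT DT(-), where 2 of 32 erythroid genes were called, 12 of 14 neutrophil genes and 4 of 8 platelet genes were 2-fold lower (*Ppbp*, 18.2-fold), while B cell genes had 0 of 10 lower. Summed over the list on a linear scale, in units of the 75th percentile of the array, the neutrophil genes had 39.1 in WT DT(-), 61.1 in WT DT(+), 13.9 in OHC-TRECK DT(-) and 24.0 in OHC-TRECK DT(+). The sums for platelet genes were 3.39, 5.28, 1.72 and 2.58, and those for B cell genes 3.48, 4.88, 3.35 and 3.40. Among the erythroid subgroups, the sums were 2.50, 3.04, 2.20 and 2.16 for the early regulators and receptors and 2.55, 4.82, 2.46 and 2.72 for membrane and skeleton. They were 8.04, 9.73, 8.98 and 9.91 for the other late proteins, 74.0, 96.6, 89.2 and 97.2 for the globins and chaperone, and 30.2, 33.6, 31.4 and 30.2 for heme synthesis. WT DT(+) had the highest sum except for the other late proteins and the globins and chaperone, where OHC-TRECK DT(+) was slightly higher. A linear sum follows its brightest gene, so the early sum mostly gives *Tfrc* (log2 1.01, 0.88, 0.91 and 0.77 in the same order). The globin sum likewise mostly gives *Hba-a1* (5.91, 6.19, 6.17 and 6.28). That of the other late proteins mostly gives *Hemgn* (2.37, 2.59, 2.63 and 2.72). The platelet sum mostly gives *Pf4* (1.26, 1.65, 0.56 and 1.18), and the B cell sum largely *Ebf1* (1.23, 1.26, 1.26 and 1.20). These sums therefore say little of the dimmer genes in their lists.

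After DT in OHC-TRECK mice, genes of proliferating cells were 2-fold higher in 7 of 8 cases, where 2.76% of all genes were. Their median was 1.76, with *Mki67* at 4.17-fold, a ratio close to that in WT mice, whereas the erythroid median was 0.13. Of the 7, 2 were lower bounds, *Top2a* and *Aurkb*. *Aurkb* was above background on the OHC-TRECK DT(+) array alone and so entered only through the array on which it was high. The sums for proliferating cells were 0.963, 2.67, 0.638 and 1.94. Macrophage genes were higher in 4 of 8 cases, with a median of 1.04, neutrophil genes in 4 of 12, with 0.71, and B cell and platelet genes in 0 of 10 and 0 of 7, with 0.03 and 0.17. In OHC-TRECK DT(+) against WT DT(+), 12 of 14 neutrophil genes, 6 of 10 B cell genes and 4 of 8 platelet genes were 2-fold lower beside the 11 of 33 erythroid genes.

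**Figure D5:**
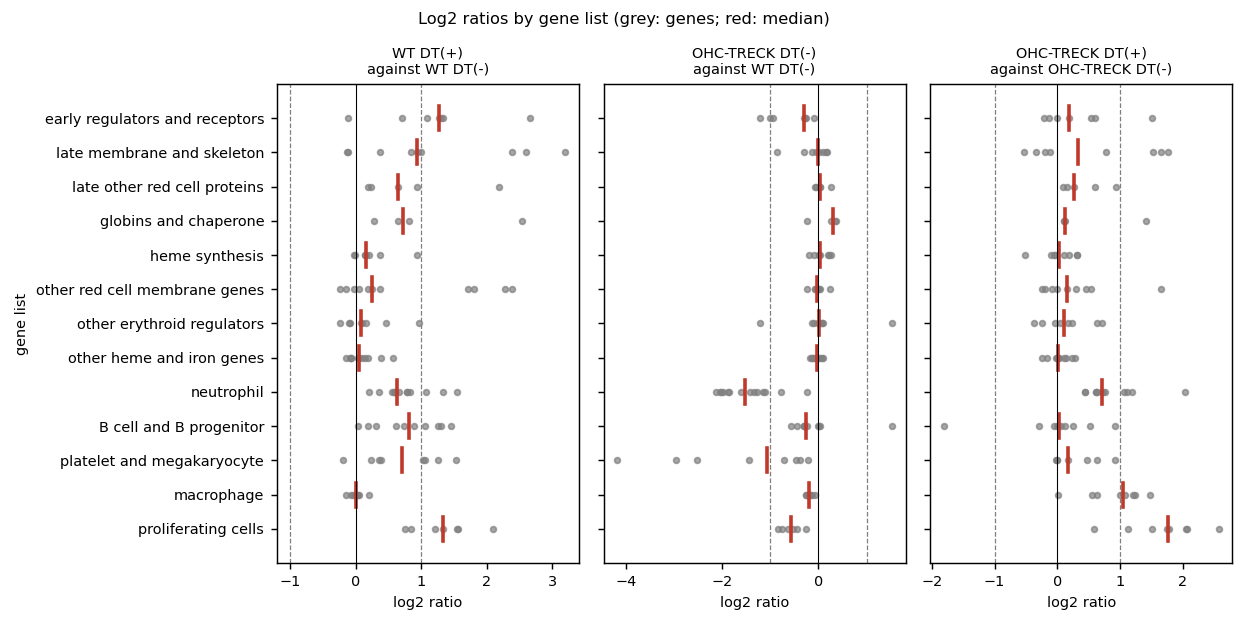
Log2 ratios (horizontal) of the genes in each list (grey points) with their median (red), for DT in WT mice, for the untreated genotypes and for DT in OHC-TRECK mice, with dashed lines at 2-fold. The early erythroid median is 1.28 after DT in WT mice and 0.19 in OHC-TRECK mice, and the neutrophil median is -1.52 between the untreated genotypes.

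The labelled tissue was checked on 13 cochlear genes, all of which had a probe above background, and *Otos*, otospiralin, lay between 6.98 and 7.40 on the 4 arrays. Of the 13, 2 were 2-fold higher after DT in WT mice, 1 was higher in OHC-TRECK DT(-) than in WT DT(-), and 0 changed after DT in OHC-TRECK mice. Of 5 outer hair cell genes, 4 were 2-fold lower in OHC-TRECK DT(+) than in OHC-TRECK DT(-), with a median of -2.76, and 0 were called after DT in WT mice. The share of probes well above background was 62.3% to 70.6% per array, with 0 saturated spots.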

How the data were processed

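Total RNA of cochleae was measured on 1-colour (Cy3) Agilent mouse arrays, 1 for each group, with all 4 on 1 slide. The authors scanned the slide and ran Agilent Feature Extraction 11.5.1.1, and the intensity they deposited for each spot is linear, with background subtracted and spatial trends removed by that software and with no scaling between arrays. The spot means and backgrounds, in the same deposited unit of intensity, served 1 alternative. A further table deposited by the authors holds this intensity divided by 1 constant per array, with column medians between 0.0828 and 0.0865; it is linear, not centred, and served as an alternative.

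Of 44397 features, 1377 controls were dropped, as were outlier spots (149 to 228 for each array). Each probe got the mean of its spots and the flag that a share of over 0.5 of them carried. The log2 of the intensity minus that of the array's 75th percentile was taken, as the methods of the study state (the baseline transformation they add cancels in a ratio). A gene, by its name in the array files, was represented by its brightest probe (of those well above background on any array), and entered a comparison when this probe was so on at least 1 of the 2 arrays. A signal not well above background was replaced by the lowest such signal of its array, if that was higher, which gives a lower bound; bounds under 1 are not printed. The number of arrays limits the precision, and with 1 array per group no test was made: 4 comparisons were called at 2-fold, beside the same count over all genes.

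The members and lists were chosen with earlier results of these data known. By the rule for names, the text gives all 33 members, other pathway genes called in any comparison or brightest in their list, leading markers of each list, and further probes of a member whose log2 ratio differed by 1 or more. Of the marker genes, those named are the brightest or the called ones that the comparison turns on, and the others are given as counts. *Hbb-y* and *Hbb-bh1*, and the further probes of *Car1* and *Tfrc*, lie outside the rule and were given after their values were seen. Some genes that the rule would name are counted in their lists and not reported here by name. In the list of other heme genes *Flvcr1* gave no value, and in that of globins *Hba-x* gave none. Probe positions come from the array files (mm9), and promoters are from RefSeq (GRCm38.p6).

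In a simulation of the comparison of 2 arrays all genes raised or lowered were recovered. These were bright genes, above background on all 4 arrays, shifted by more than 2-fold with little noise. Their recovery was thus built in and checks the code alone, and it says nothing of dim genes or of bounds. The 8 alternatives changed the scaling, normalization, background (normexp of limma with offset 50), filter, floor, probe rule, source and threshold (1.5-fold). Python 3.11.15, numpy 2.4.6, pandas 2.3.3, scipy 1.17.1, matplotlib 3.10.9, R 4.3.3 and limma 3.58.1 were used.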

Additional observations from a re-analysis of the deposited data

Results flagged for a closer look

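The ratio after DT was above 0 in WT and below 0 in OHC-TRECK mice for *Gfi1b* and *Ank1*, by more than 0.20 on the log2 scale in each genotype, which is 2 SDs of a ratio from repeated spots. This SD was taken from probes well above background, which *Gfi1b* in OHC-TRECK DT(+) was not. Its value of -0.21 there only just passed the level, so its opposite sign is not shown to exceed the spread of spots. With 1 array per group, the difference was not tested. For *Gfi1b* the log2 ratio was 1.33 in WT and -0.21 or lower in OHC-TRECK mice, a difference of -1.53 or more in size, since the signal in OHC-TRECK DT(+) was not above background. For *Ank1* it was 0.36 in WT and -0.53 in OHC-TRECK mice, a difference of -0.89. The signs also differed, with a smaller ratio in at least 1 genotype, for *Tspan33* (0.94 in WT and -0.12 in OHC-TRECK mice), *Uros* (0.16 and -0.52) and *Fech* (0.13 and -0.04).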

How the results depend on the processing

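No paired analysis was possible because each group has 1 array, and for the same reason no replicate could be left out. Over the 8 alternatives, the genes 2-fold higher in WT DT(+) than in WT DT(-) numbered 7 to 11 at 2-fold, against 10, and 19 at 1.5-fold. In OHC-TRECK DT(+) against OHC-TRECK DT(-) they numbered 4 or 5 at 2-fold and 9 at 1.5-fold. The genes lower in OHC-TRECK DT(-) than in WT DT(-), 2 in the report, numbered 1 with scaling to the median, 1 with quantile normalization, 1 where all 4 arrays had to be above background, 0 with normexp and 4 at 1.5-fold. Those lower in OHC-TRECK DT(+) than in WT DT(+) numbered 8 to 12 at 2-fold, against 11, and 14 at 1.5-fold. The median log2 ratio after DT in WT mice was 0.81 with the median over all probes of a gene, against 0.70. In the same comparison normexp gave 0.698% of all genes higher and 0.927% lower, and no floor gave 1.78% and 2.72%, against 1.55% and 1.12%. Of 130 single log2 ratios of the genes, 39 moved by more than the SD of a ratio from repeated spots (0.10) with normexp, 13 with all probes of a gene, 7 with quantile normalization and 3 without a floor.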
